A study of Mus musculus with 60 samples.

Results

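This account covers 9 genes for liver enzymes of carbohydrate and amino acid metabolism, Pck1, G6pc, Fbp1, Cps1, Ass1, Tat, Hpd, Agxt and Aox3, as read in preparations of Kupffer cells, the macrophages that reside in liver. The 9 were chosen by symbol, with the group levels of these same libraries in view, out of 24411 gene rows of the count table, so what they do between the groups is given as a description. Of the 9, 8 had counts and passed the filter on low counts, and Ass1 had none. There were 3 groups of 5 mice, all C57BL/6J, 8 weeks old and male by their labels, and all killed 12 h after 1 injection. Trem1-deficient mice received carbon tetrachloride (CCl4), wild-type mice received CCl4, and wild-type mice received corn oil; CCl4 was given at 2 µl per g, diluted in corn oil. CCl4 is a solvent that injures hepatocytes, and Trem1 is the gene of a receptor by which myeloid cells amplify inflammatory signals. No oil-treated Trem1-deficient group is among the samples, and the make of the Trem1 allele was not given in the sources used here. Per the labels' protocols hepatocytes were spun out of the liver digest at low speed, cells carrying CD11b were taken out with magnetic beads, and cells carrying F4/80 were then collected from the remainder. The 3' tag libraries give reads from the end of each transcript, so a count needs no correction for gene length, and levels are given as TMM-scaled counts per 1000000 (CPM).

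The 9 enzymes serve the liver's handling of fasting fuel and of nitrogen. Hepatocytes make glucose from lactate and amino acids and release it to the blood, and they turn the ammonia left from amino acid breakdown into urea. Several of these genes, Pck1, G6pc and Tat among them, are switched on around birth, raised by glucagon and glucocorticoids and lowered by insulin. In bulk RNA a level cannot be assigned to a cell type, and which cells gave the counts was not tested.

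The libraries did not divide by treatment alone. The index numbers in the labels form 2 series, one of 7 libraries (Trem1-deficient mice 1 and 2 with the 5 oil mice) and one of 8 (Trem1-deficient mice 3 to 5 with the 5 mice of wild type given CCl4). The first series had 72 to 1552 counts of Xist, the transcript of the inactive X chromosome, and 0 to 7 counts of Y-linked genes, against its label of male, whereas the second had 1 to 31 Xist counts and 134 to 425 Y-linked counts. Between wild-type CCl4 and oil, treatment, index series and these sex-linked transcripts cannot be told apart; each comparison with the Trem1-deficient mice is given below with all mice and within 1 index series. Gene counts came to 812320 to 2593004 per library, so that the 3 counts a zero cannot exclude equal 1.16 to 3.69 CPM. Trem1 itself was at 1.16 to 10.7 CPM in the Trem1-deficient CCl4 mice, 109 to 567 CPM in the wild-type CCl4 mice and 32.4 to 107 CPM in the oil mice.

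Levels of cell type markers differed between the same groups. All 13 Kupffer cell markers had counts in every group; their summed level was 48802 to 60064 CPM in Trem1-deficient CCl4 mice, 5474 to 22092 CPM in wild-type CCl4 mice and 34088 to 68446 CPM in oil mice. All 20 secretory markers of hepatocytes, such as Alb and Apoa1, were present too, at 3627 to 29540.3 CPM in Trem1-deficient CCl4 mice, 23958 to 73392 CPM in wild-type CCl4 mice and 5333 to 21626 CPM in oil mice. The enzymes are set against these hepatocyte transcripts below. Monocyte markers (8 of 8 with counts) summed to 617 to 1394 CPM in Trem1-deficient CCl4 mice, 2561 to 4816 CPM in wild-type CCl4 mice and 508 to 1221 CPM in oil mice. Of their mean sums of 989, 3870 and 733 CPM in these groups, Fn1 alone made up 445, 1618 and 246 CPM. Which cells gave the Fn1 counts was not tested. Neutrophil markers (10 of 10) summed to 390.4 to 3219 CPM, 1199 to 10972 CPM and 222 to 1730.2 CPM in Trem1-deficient CCl4, wild-type CCl4 and oil mice. Sinusoidal endothelial markers (8 of 8) and stellate cell markers (10 of 10) had overlapping ranges in the 3 groups, as did lymphocyte markers (7 listed). Cholangiocyte markers, with 1 of 4 at 0 everywhere, had median sums of 18.5, 58.6 and 3.30 CPM in Trem1-deficient CCl4, wild-type CCl4 and oil mice. Of 5 kidney tubule markers, a second site of several of these enzymes, 4 were at 0 in every library. The fifth, Lrp2, had 4 and 1 counts in Trem1-deficient CCl4 mice 4 and 2, 0 in all wild-type CCl4 mice, and 33 counts (40.7 CPM) in oil mouse 2 with 0 in the other oil mice. Oil mouse 2 also had the highest Pck1, G6pc, Tat and Aox3 levels of its group. Its sum of hepatocyte secretory markers, 21626 CPM, was the highest of the group too. The part of oil mouse 2 in the results was not tested beyond leaving it out. In bulk RNA fewer hepatocytes in a preparation and less of a transcript per hepatocyte cannot be told apart, and the part of cell make-up in the results below was not tested.

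Promoter sequence is shown for 4 of the genes, Agxt and Aox3, which stood furthest apart between the CCl4 groups, and Pck1 and Tat, textbook targets of hormone signalling in liver. Each run is the 200 bases before the RefSeq start on GRCm38.p6, read 5′ to 3′ on the gene's strand; capitals mark matches, on either strand, to the 5 short motifs named after them. RefSeq entries were found for 8 of the 9 genes, all but Cps1. By the GENCODE positions given below, the last 25 bases of the Pck1 run and the last 6 of the Aox3 run lie within the gene.
Agxt, chr1:93135040-93135239, plus strand: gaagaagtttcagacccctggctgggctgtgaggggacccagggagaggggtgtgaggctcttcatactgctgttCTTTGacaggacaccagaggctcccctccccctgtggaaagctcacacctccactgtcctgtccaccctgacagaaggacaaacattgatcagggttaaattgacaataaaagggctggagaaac
Aox3, chr1:58112936-58113135, plus strand: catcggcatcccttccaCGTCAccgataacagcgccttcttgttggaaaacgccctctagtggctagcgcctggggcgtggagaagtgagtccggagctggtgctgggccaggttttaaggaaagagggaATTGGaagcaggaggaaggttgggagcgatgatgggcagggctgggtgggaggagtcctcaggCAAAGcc
Pck1, chr2:173152873-173153072, plus strand: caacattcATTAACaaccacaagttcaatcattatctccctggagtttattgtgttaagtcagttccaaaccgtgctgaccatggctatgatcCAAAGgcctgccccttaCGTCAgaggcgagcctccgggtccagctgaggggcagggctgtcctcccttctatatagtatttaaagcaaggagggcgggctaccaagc
Tat, chr8:109990236-109990435, plus strand: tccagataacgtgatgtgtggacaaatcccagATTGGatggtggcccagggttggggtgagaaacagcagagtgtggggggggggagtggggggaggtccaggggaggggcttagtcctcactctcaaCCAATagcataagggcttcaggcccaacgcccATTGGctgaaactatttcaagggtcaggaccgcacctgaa
The motifs were TATAAA (the TATA box), CCAAT (the CCAAT box), TGACG (the core of cAMP response elements), GTTAAT (the arm of HNF1 sites) and CAAAG (the core of HNF4 sites); no marked matches overlap. Pck1 held TGACG at 90 bases and GTTAAT at 192 bases before its start, and CAAAG at 107 bases. Tat held 3 CCAAT matches, at 168, 72 and 40 bases. Agxt held CAAAG at 125 bases, and Aox3 held TGACG at 183, CCAAT at 70 and CAAAG at 7 bases. Over 32851 RefSeq promoters of the same length, 40.3% held CAAAG, 29.3% CCAAT, 15.7% TGACG, 9.96% TATAAA and 5.06% GTTAAT, and among the 8 enzyme promoters 4, 3, 2, 1 and 1 did. The matches are letters in a window, and no binding was measured.

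Pck1, G6pc and Fbp1 act in glucose making. Pck1 (chromosome 2, 173153048 to 173159273, plus strand, GRCm38) encodes the cytosolic phosphoenolpyruvate carboxykinase, which turns oxaloacetate into phosphoenolpyruvate and is the classic control point of gluconeogenesis. Pck1 and Hpd were the enzymes with counts in all 15 libraries. The level of Pck1 was 25.4, 6.02, 34.3, 54.8 and 32.4 CPM in Trem1-deficient CCl4 mice 1 to 5, 40.6, 107, 54.5, 139 and 36.3 CPM in wild-type CCl4 mice, and 48.2, 189.9, 60.7, 40.8 and 41.5 CPM in oil mice. The Trem1-deficient range reached into both others, and all 5 oil mice lay above 4 of the 5 Trem1-deficient mice. The means were 30.6 ± 17.6 CPM in Trem1-deficient CCl4, 75.6 ± 45.5 CPM in wild-type CCl4 and 76.2 ± 64.1 CPM in oil mice (SD, n = 5 each). On the log2 scale the fitted difference was -1.32 ± 0.65 (SE) for Trem1-deficient CCl4 against wild-type CCl4 and 0.00 ± 0.63 for wild-type CCl4 against oil.

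G6pc (chromosome 11, 101367561 to 101377903, plus strand) encodes the catalytic subunit of glucose-6-phosphatase, which frees glucose at the end of both gluconeogenesis and glycogen breakdown. It was read at 0, 0.669, 0.429, 2.42 and 25.5 CPM in Trem1-deficient CCl4 mice, 145, 0, 8.46, 0 and 1.34 CPM in wild-type CCl4 mice, and 86.2, 314, 42.4, 17.1 and 11.8 CPM in oil mice. A single mouse carried most of the signal in each CCl4 group, and every oil mouse had counts. It was the most uneven of the 8, with a biological coefficient of variation (the fitted spread between mice of a group) of 1.38, against 0.678 for Pck1 and a median of 0.891 over all tested genes. Its fitted log2 difference was -1.59 ± 1.62 for wild-type CCl4 against oil, and -5.24, past the threshold of an adjusted p under 0.05 in edgeR, without wild-type CCl4 mouse 1. Against wild-type CCl4 the Trem1-deficient difference was -2.45 ± 1.70 with all mice and 1.21 without that same mouse, so its direction there rested on 1 library.

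Fbp1 (chromosome 13, 62864753 to 62888282, minus strand), the fructose bisphosphatase between those steps, was low throughout. It was at 0.659, 0.335, 17.2, 15.3 and 2.32 CPM in Trem1-deficient CCl4 mice, 10.5, 1.99, 7.52, 32.0 and 0 CPM in wild-type CCl4 mice, and 5.56, 3.70, 5.65, 0.948 and 17.0 CPM in oil mice. The 3 ranges overlapped almost wholly, and fitted log2 differences were -0.57 ± 1.30 between the CCl4 groups and 0.66 ± 1.30 for wild-type CCl4 against oil. The difference between the CCl4 groups was the smallest of the 8 and turned to 0.47 without wild-type CCl4 mouse 4.

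**Figure D1:**
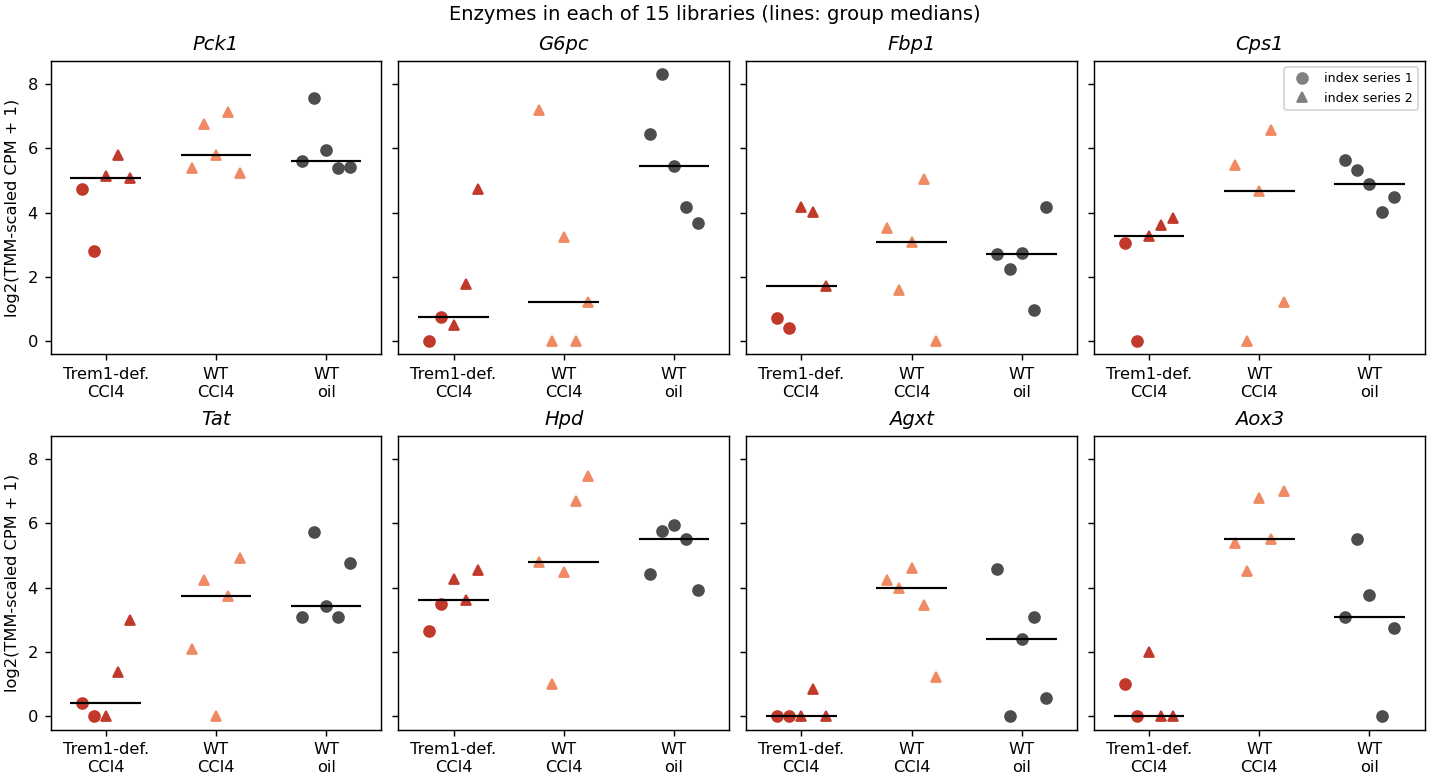
Levels of the 8 detected enzymes, as log2(TMM-scaled CPM + 1), in each of 15 libraries, by group; circles are libraries of index series 1, triangles of series 2, and lines are group medians. Agxt and Aox3 lie at 3.00 CPM or less in all 5 Trem1-deficient CCl4 mice and apart from the wild-type CCl4 mice, while G6pc is led by 1 mouse in each CCl4 group.

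Cps1 and Ass1 are enzymes of the urea cycle. Cps1 (chromosome 1, 67123026 to 67231259, plus strand), the mitochondrial carbamoyl phosphate synthetase that brings ammonia into the cycle, was at 7.25, 0, 8.59, 11.3 and 13.3 CPM in Trem1-deficient CCl4 mice. It was at 43.9, 0, 24.4, 93.2 and 1.34 CPM in wild-type CCl4 mice and at 49.1, 39.5, 28.9, 15.2 and 21.2 CPM in oil mice. All 5 Trem1-deficient mice lay below all 5 oil mice, and the wild-type CCl4 mice spanned the whole range. The fitted log2 difference was -2.03 ± 1.12 between the CCl4 groups and -1.93 ± 1.12 for Trem1-deficient CCl4 against oil.

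Ass1 (chromosome 2, 31470207 to 31520672, plus strand), which joins citrulline to aspartate and is abundant in liver, had 0 counts in all 15 libraries, among 23300860 gene counts. A count of 0 allows up to 0.294 CPM over the Trem1-deficient CCl4 group, 0.438 CPM over the wild-type CCl4 group and 0.480 CPM over the oil group, for counting error only. A processed pseudogene, Gm5424 (chromosome 10, 62071123 to 62072362, plus strand), matches Ass1 over 1240 bases at 99.5% identity and also had 0 counts everywhere. The aligned stretch ends 254 bases before the end of the 1696-base Ass1 transcript. Reads that map to more than 1 place were tallied apart from genes by the authors, and how many came from Ass1 was not tested, so the 0 is not read as absence of the transcript.

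Tat and Hpd act one after the other in the breakdown of tyrosine. Tat (chromosome 8, 109990437 to 109999803, plus strand), the tyrosine aminotransferase that glucocorticoids induce in liver, was at 0.329, 0, 0, 1.61 and 6.95 CPM in Trem1-deficient CCl4 mice. It was at 3.28, 17.9, 0, 12.4 and 29.6 CPM in wild-type CCl4 mice and 7.42, 51.8, 9.88, 7.58 and 26.4 CPM in oil mice. Every Trem1-deficient mouse lay below every oil mouse, by a narrow margin between 6.95 and 7.42 CPM. The fitted log2 difference was -2.83 ± 1.39 between the CCl4 groups and -3.53 ± 1.42 for Trem1-deficient CCl4 against oil.

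Hpd (chromosome 5, 123171807 to 123182727, minus strand) encodes hydroxyphenylpyruvate dioxygenase, which takes the product of Tat a step further. It was at 5.27, 10.4, 18.5, 11.3 and 22.6 CPM in Trem1-deficient CCl4 mice, 26.9, 0.993, 21.6, 102 and 176 CPM in wild-type CCl4 mice, and 20.4, 53.0, 60.7, 44.6 and 14.2 CPM in oil mice. The wild-type CCl4 mice spread more widely than the other 2 groups, with the lowest and the highest value of all 15. The fitted log2 difference between the CCl4 groups was -2.28 ± 0.88, not past the threshold in edgeR and past it in DESeq2. Hpd overlaps Gm26745 on its own strand and Psmd9 on the other, and since no source used here states the strand setting of the counting, its counts are uncertain.

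Agxt (chromosome 1, 93135240 to 93145421, plus strand) encodes alanine-glyoxylate aminotransferase, which clears glyoxylate before it becomes oxalate. It had 1 count in 1 of the 5 Trem1-deficient CCl4 mice, at 0.805 CPM, and 0 in the other 4. The wild-type CCl4 mice were at 17.7, 14.9, 23.5, 10.1 and 1.34 CPM and the oil mice at 23.2, 0, 4.24, 7.58 and 0.472 CPM. Summed over the groups this was 1 count in the Trem1-deficient CCl4 mice against 86 in the wild-type CCl4 mice, a depth-corrected ratio of wild type over Trem1-deficient of 128 (95% exact interval 22.4 to 5122, for counting error only). The 2 CCl4 groups did not overlap, though the nearest values, 0.805 and 1.34 CPM, were 1 count each. The fitted log2 difference, -6.16 ± 1.66, was past the threshold in edgeR, also without wild-type CCl4 mouse 1 or 5, and was not past it without any other single mouse of the 2 groups.

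Aox3 (chromosome 1, 58113130 to 58200698, plus strand) encodes a molybdenum-containing aldehyde oxidase, the main form in mouse liver, which oxidises aldehydes and many drugs. It was at 0.988, 0, 3.00, 0 and 0 CPM in Trem1-deficient CCl4 mice, 41.3, 21.8, 111, 44.9 and 129 CPM in wild-type CCl4 mice, and 7.42, 44.4, 12.7, 0 and 5.66 CPM in oil mice. The lowest wild-type CCl4 mouse stood above the highest Trem1-deficient mouse, with no overlap. The group totals were 10 counts in the Trem1-deficient CCl4 mice and 379 in the wild-type CCl4 mice. The fitted log2 difference was -6.25 ± 1.29, past the threshold with all mice and with any single mouse of the 2 groups left out. Aox3 was also the enzyme with the largest positive fitted difference for wild-type CCl4 against oil, 2.33 ± 1.06, with overlapping groups. A small nucleolar RNA gene, Gm24548, lies within Aox3 on the other strand.

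Set side by side, 8 of 8 fitted differences were negative for Trem1-deficient CCl4 against wild-type CCl4, with a median of -2.37 on the log2 scale, against -0.03 over all 9001 tested genes and -1.998 over the 20 secretory markers. Agxt and Aox3, 2 of 8, passed the threshold (an adjusted p under 0.05 in edgeR's quasi-likelihood test, by Benjamini-Hochberg over all genes tested) and were also the 2 with no overlap between the groups. Over all tested genes 2.06% passed in either direction and 1.28% as lower, and 5.57% did not overlap in either direction and 2.10% as lower. Because the enzymes were picked with these values known, the counts describe them and nothing is read from the comparison with all genes. At an unadjusted p under 0.05 there were 4, and DESeq2 had 2 past the threshold, Hpd and Aox3, with no adjusted p for 3 others, Agxt among them.

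**Figure D2:**
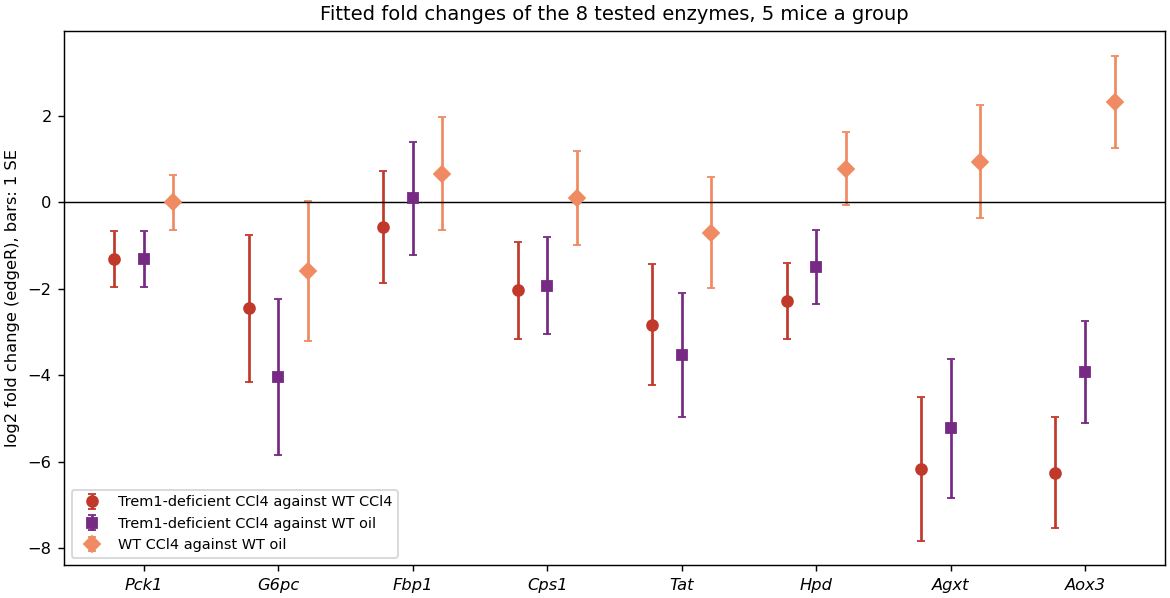
Fitted log2 fold changes (edgeR) with 1 SE for the 8 tested enzymes in the 3 comparisons, 5 mice a group. Differences between the CCl4 groups run from -0.57 for Fbp1 to -6.25 for Aox3, while those for wild-type CCl4 against oil lie on both sides of 0.

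Within the second index series, where 3 Trem1-deficient mice stand against the 5 wild-type CCl4 mice, none of the 8 passed. Aox3 kept a fitted log2 difference of -5.86 there and Agxt one of -5.41, and the difference of Fbp1 turned to 0.15. With index series as a term in the fit of all 15 mice the values were -5.89 for Aox3 and -5.49 for Agxt, and again none passed. The 3 Trem1-deficient mice of that series had 82.0, 97.4 and 103 CPM of the 9 enzymes in sum, against 39.9 and 17.4 CPM in the 2 of the other series, 329, 165, 251, 434 and 375 CPM in the wild-type CCl4 mice, and 248, 697, 225, 134 and 138 CPM in the oil mice. All 5 Trem1-deficient sums lay below all 10 wild-type sums.

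For Trem1-deficient CCl4 against oil, 7 of 8 fitted differences were negative, with a median of -2.73 against 0.02 over all tested genes. None passed the threshold in edgeR, where 0.233% of all tested genes did; 4 had an unadjusted p under 0.05 and DESeq2 had 1, Aox3. Cps1 and Tat did not overlap between these groups, and 2.91% of all tested genes did not overlap. Within the first index series, 2 Trem1-deficient mice against the 5 oil mice, the fitted log2 differences were -7.85 for G6pc, -6.44 for Tat and -2.26 for Pck1, with 0 past the threshold. Those 2 Trem1-deficient mice had 0 and 2 counts of G6pc and 1 and 0 counts of Tat. The size of the G6pc and Tat differences is therefore limited by the floor of 3 counts. Without oil mouse 2 the differences for all other mice were -0.65 for Pck1, -2.77 for G6pc and -2.83 for Aox3, Fbp1 turned to -0.06, and 0 passed.

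For wild-type CCl4 against oil, none of the 8 passed in edgeR or DESeq2 and 1 had an unadjusted p under 0.05, against 5.13% of all tested genes past the threshold in edgeR. No enzyme separated these groups, and 6.59% of all tested genes did. The median fitted difference was 0.38 for the enzymes, 2.20 for the secretory markers and 0.06 for all tested genes. With index series as a term 0 passed, and 7 of the 8 differences were negative, Pck1 at -1.36, G6pc at -6.12 and Fbp1 at -3.68, with Aox3 at 1.29. Each wild-type group lies in 1 index series, so that term rests only on Trem1-deficient mice 1 and 2 against 3 to 5. The adjusted values assume that series shifts the wild-type groups as it does those mice, which was not tested. The 3 comparisons share groups of mice, so their values are not independent of each other.

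Counted per 1000 counts of the 20 secretory markers, the enzymes were lower in both CCl4 groups than in oil. The ratio was 8.34, 4.80, 6.89, 4.89 and 3.49 in Trem1-deficient CCl4 mice 1 to 5, 13.7, 2.44, 3.42, 12.3 and 7.28 in wild-type CCl4 mice, and 22.3, 32.2, 26.1, 25.1 and 19.8 in oil mice. With this denominator neither CCl4 group overlapped with oil, and the CCl4 groups overlapped with each other. Medians of oil were 5.12 times those of Trem1-deficient CCl4 and 3.44 times those of wild-type CCl4, and the ratio of wild-type to Trem1-deficient CCl4 medians was 1.49. Within the first index series the 2 Trem1-deficient mice, at 8.34 and 4.80, stood apart from the 5 oil mice, from 19.8 upward.

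By gene, all 8 enzymes had a lower median ratio in Trem1-deficient CCl4 than in oil, and 7 of 8 had one in wild-type CCl4 than in oil, the exception being Aox3. G6pc had a median of 0.121 and 0.0261 per 1000 in the Trem1-deficient and wild-type CCl4 mice and 4.92 in oil mice, and Cps1 had 0.566, 0.333 and 3.05. Aox3 had 0, 1.51 and 0.813, and Agxt 0, 0.286 and 0.492. Between the CCl4 groups 4 of 8 were lower in the Trem1-deficient mice, and 4 were not. The ratio depends on its denominator, for which 2 others were tried after seeing the data. Apoc1 alone among the markers had a negative fitted difference for wild-type CCl4 against oil (-0.61). It alone had a positive one for Trem1-deficient against wild-type CCl4 (0.08). Apoc1 was 1098 of the 3627 CPM of the markers in Trem1-deficient CCl4 mouse 2, and of the denominators only Alb alone leaves it out. Of the 20 markers, 6 were set apart as acute-phase genes, namely Fga, Fgb, Fgg, Hp, Hpx and Serpina3k. All 6 rose in wild-type CCl4 against oil (fitted log2 differences 3.33 to 4.83, edgeR adjusted p 0.00265 to 0.0251). They are the same 6 of the 20 markers that passed the threshold in that comparison. Since they were set apart after seeing the data, nothing is read from their rise. Without these 6 the Trem1-deficient mice did not overlap with oil (oil median 2.73 times theirs) and the wild-type CCl4 mice did (2.75 times), and the CCl4 groups had medians of 10.1 per 1000 each. Against Alb alone the Trem1-deficient mice, at 39.7 to 135 per 1000, stood below the oil mice, at 144 to 185 per 1000 (oil median 1.94 times theirs). The wild-type CCl4 mice, at 13.8 to 241 per 1000, overlapped with oil, since mouse 1 lay above every oil mouse (oil median 5.48 times theirs). With Alb alone the ratio between the CCl4 groups turned, with a median of 83.6 per 1000 in Trem1-deficient CCl4 mice and 29.6 per 1000 in wild-type CCl4 mice.

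**Figure D3:**
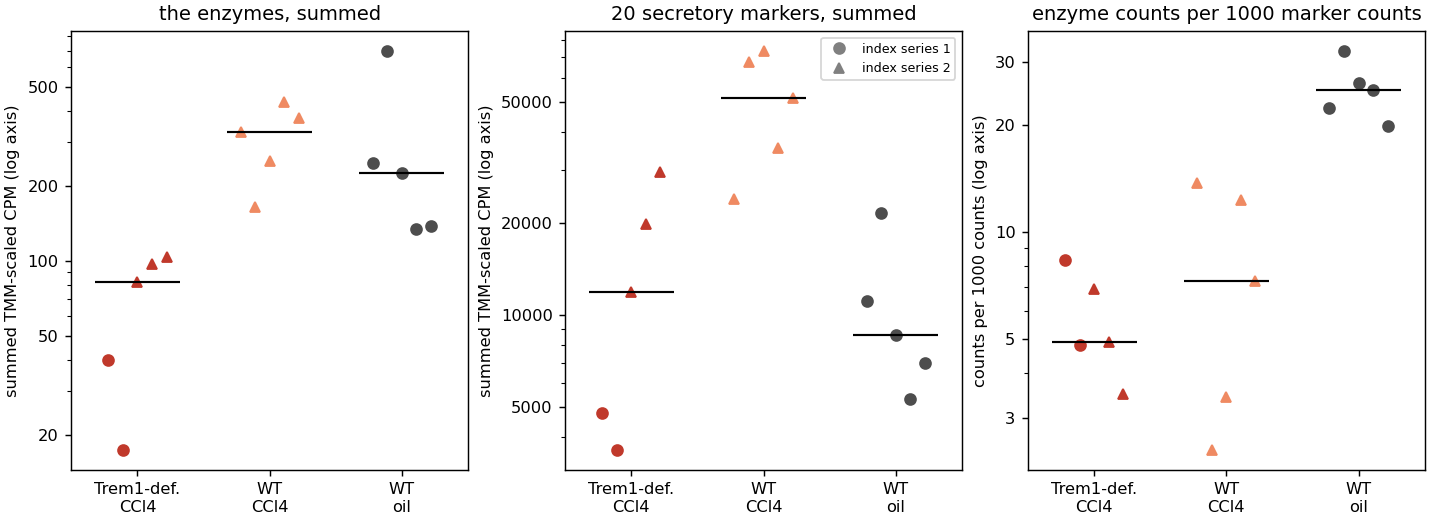
Summed TMM-scaled CPM of the enzymes (left) and of the 20 secretory markers (middle), and enzyme counts per 1000 marker counts (right), in each library on log axes; circles are index series 1, triangles series 2, and lines are medians. The ratio lies between 2.44 and 13.7 in both CCl4 groups and at 19.8 or above in the oil mice.

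The make-up of the enzyme counts also varied from mouse to mouse. The largest single enzyme took 31.5 to 63.6% of a library's enzyme counts in Trem1-deficient CCl4 mice, 32.1 to 65.1% in wild-type CCl4 mice and 27 to 45.1% in oil mice. It was Pck1 in 4 of the 5 Trem1-deficient mice and Hpd in the other. In the wild-type CCl4 mice it was G6pc, Pck1, Aox3, Pck1 and Hpd in mice 1 to 5. The number of enzymes with any count was 4 to 7 in Trem1-deficient CCl4 mice, 6 to 8 in wild-type CCl4 mice and 7 to 8 in oil mice.

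**Figure D4:**
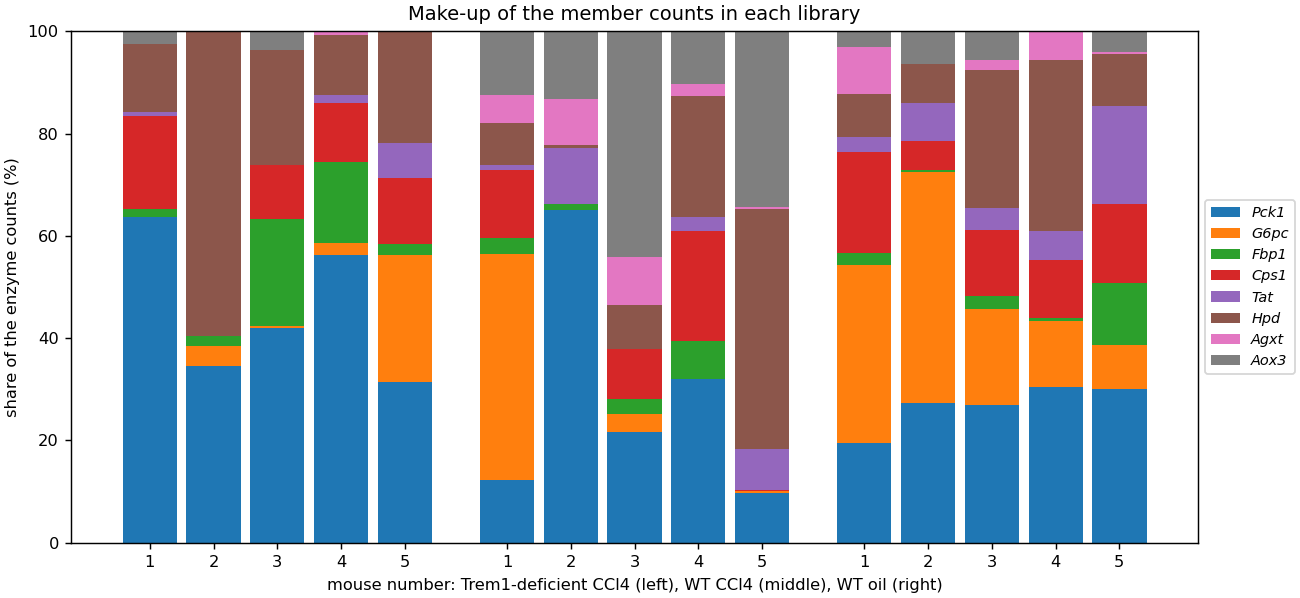
Share of each enzyme in the enzyme counts of each library, in percent, for mice 1 to 5 of the Trem1-deficient CCl4 (left), wild-type CCl4 (middle) and oil group (right). The largest share lies between 27 and 45.1% in the oil mice and reaches 65.1% in the CCl4 mice.

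Other genes of the same pathways, transcriptional regulators of these enzymes, and periportal and pericentral hepatocyte genes were taken from textbook lists. The 100 genes of these 8 lists are together called pathway genes, and 68 of them were tested. For Trem1-deficient CCl4 against wild-type CCl4, 5 of the 68 fell and 0 rose in edgeR, with a median of -1.60, and DESeq2 had 15 lower and 1 higher. Of all tested genes 1.28% passed as lower in edgeR. Mat1a, which makes S-adenosylmethionine, fell to 67.4 ± 58.8 CPM in Trem1-deficient CCl4 mice, against 454 ± 279 CPM in wild-type CCl4 mice (SD, n = 5 each; log2 difference -2.77 ± 0.51, adjusted p = 0.0026, edgeR). Gnmt, which uses up the same methyl donor, averaged 40.7 ± 20.4 CPM in Trem1-deficient and 374 ± 328 CPM in wild-type CCl4 mice (-3.21 ± 0.53, adjusted p = 0.000833, edgeR). Mat1a and Gnmt also passed within 1 index series. Hnf4a, a transcription factor that drives many hepatocyte genes, had 4.81 ± 3.33 CPM in Trem1-deficient and 61.6 ± 19.9 CPM in wild-type CCl4 mice (-3.67 ± 0.99, adjusted p = 0.0451, edgeR). Pigr, the receptor that carries IgA into bile, also fell (-2.81 ± 0.66, adjusted p = 0.0452, edgeR). Hnf4a and Pigr did not pass within 1 index series (adjusted p = 0.242 and 0.0538, edgeR).

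By list, the medians for the same comparison were -1.03 for 9 tested genes of gluconeogenesis, glycogen and fructose and -1.25 for 6 of the urea cycle and ammonia, of which 0 passed. They were -0.65 for 4 of tyrosine and phenylalanine breakdown, with 0 past the threshold, and -1.88 for 23 of other amino acid breakdown, of which 2 fell. The 4 tested genes of molybdenum enzymes, relatives and partners of Aox3 such as Xdh and Mocos, had a median of 1.08 and 0 passed; Xdh, the xanthine oxidase gene, averaged 362 ± 109 CPM in Trem1-deficient CCl4 and 226 ± 75.5 CPM in wild-type CCl4 mice (SD, n = 5 each; 0.67 ± 0.35, adjusted p = 0.352, edgeR). Cebpa, another hepatocyte and myeloid regulator, had a difference of 1.14 ± 0.36 (adjusted p = 0.0885, edgeR). The regulators had a median of -1.36 over 8 tested genes, 1 of which, Hnf4a, fell. Arg1, the arginase that ends the urea cycle, had a fitted difference of -1.69 ± 0.66 (adjusted p = 0.197, edgeR), and Glud1, the glutamate dehydrogenase that releases ammonia, one of -1.04 ± 0.35 (adjusted p = 0.119, edgeR).

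Hepatocytes along the lobule divide these tasks, with urea and glucose making near the portal vein and glutamine making and CCl4-activating Cyp2e1 near the central vein. Over 8 tested periportal genes the median difference between the CCl4 groups was -2.05, and over 12 tested pericentral genes it was -2.04. For wild-type CCl4 against oil the medians were 1.40 periportal and 0.41 pericentral, with 1 higher and 0 lower, Hsd17b13 (3.76 ± 1.00, adjusted p = 0.0348, edgeR). For Trem1-deficient CCl4 against oil they were -0.69 and -1.15, with 0 past the threshold. Slc1a2, the glutamate transporter of the pericentral zone, was at 2.90 to 15.9 CPM in Trem1-deficient CCl4 mice, 16.4 to 85.9 CPM in wild-type CCl4 mice and 34.9 to 105.7 CPM in oil mice, with no overlap of the first with either other (adjusted p = 0.0603 against wild-type CCl4 and 0.101 against oil, edgeR). Uroc1, the urocanase of histidine breakdown, had 0.161 ± 0.360 CPM in Trem1-deficient CCl4 and 18.6 ± 10.2 CPM in oil mice (SD, n = 5 each; adjusted p = 0.164, edgeR). The difference between the 2 zones was not tested.

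For wild-type CCl4 against oil, 4 of the 68 pathway genes rose and 1 fell in edgeR, with a median of 0.72. Of all tested genes 5.13% passed in either direction, and nothing is read from the count. Gnmt rose (2.08 ± 0.51, adjusted p = 0.0125, edgeR), and so did Hsd17b13 and Hao1, the peroxisomal oxidase that makes the glyoxylate Agxt clears (5.33 ± 1.45, adjusted p = 0.0407, edgeR). Afmid, a step of tryptophan breakdown, fell to 12.8 ± 13.1 CPM in wild-type CCl4 mice, against 82.7 ± 25.2 CPM in oil mice (SD, n = 5 each; adjusted p = 0.0448, edgeR). With index series as a term, which rests on the Trem1-deficient mice alone, none of the 5 passed. The differences of Hao1 and Hsd17b13 turned to -2.53 and -0.74 in that fit. For Trem1-deficient CCl4 against oil 0 of the 68 passed in edgeR, 11 had an unadjusted p under 0.05 and DESeq2 had 1 lower.

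**Figure D5:**
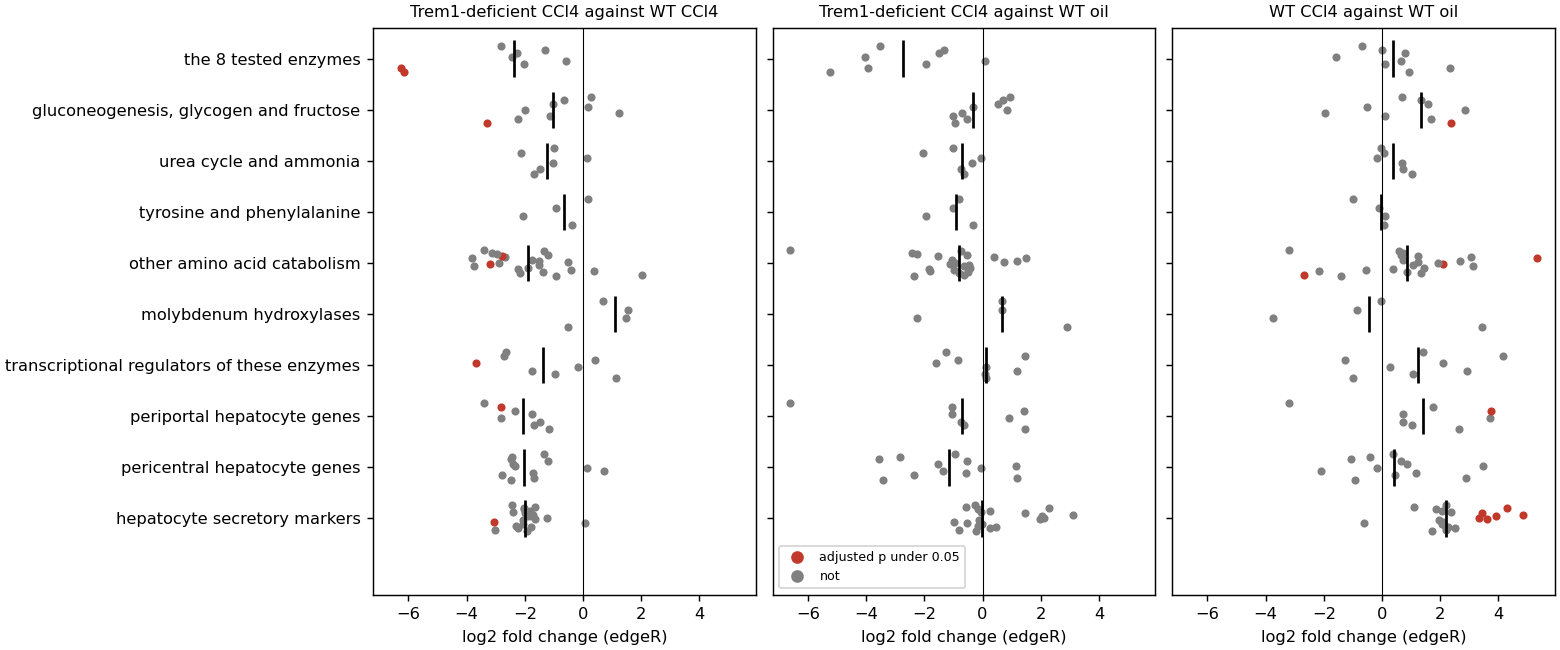
Fitted log2 fold changes of the tested genes of each list in the 3 comparisons; each point is a gene, red where its adjusted p is under 0.05, and black bars are list medians. Between the CCl4 groups the median is -2.37 for the enzymes and -1.998 for the secretory markers; for wild-type CCl4 against oil it is 0.38 for the enzymes and 2.20 for the secretory markers.

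The genes whose log2 CPM profile over the 15 libraries lay nearest the mean profile of the 8 enzymes were Cyb5r3, Ctage5, Ptms, Akap13, Onecut2 and Mir6236, out of 8570 candidates with 10 CPM or more in some group. Their root-mean-square distance was 0.745 to 0.793 log2 units, and the enzymes' own distances ran from 0.796 for Pck1 to 2.05 for G6pc. Alb ranked 2182 by the same measure, at 1.47 log2 units. Cyb5r3 averaged 158 ± 64.2 CPM in Trem1-deficient CCl4 mice, 301 ± 72.3 CPM in wild-type CCl4 mice and 261 ± 72.0 CPM in oil mice (SD, n = 5 each). The libraries share depth and index series across all these profiles.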

How the data were processed

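The table the authors deposited holds raw read counts per gene, 1 column per mouse; the labels list 60 lanes, 4 per mouse. The submitters' processing notes list Trimmomatic, STAR 2.5.1a, Partek 6.6 and mm10 but not what each did; annotation and strand setting were not given in the sources used here. Of 24415 lines, 24411 are genes and 4 tally reads outside genes; these 4 entered no library size and no test. Genes took 12.6 to 28.8% of reads per library. Positions come from GENCODE (GRCm38) and promoters from RefSeq (GRCm38.p6).

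The main fit was edgeR 4.0.16 (R 4.3.3) over all 15 mice, with TMM factors, filterByExpr and robust quasi-likelihood F-tests on 12 residual degrees of freedom, Benjamini-Hochberg adjusted over 9001 genes; it was tested on simulated data. The SE given with a fitted log2 difference is the size of that difference divided by the square root of its F statistic. It was worked back from the test and is approximate. Alternatives were DESeq2 1.42.0, library totals, no filter, mouse number as a block, index series as a term, the 2 groups alone, 1 index series, and each mouse left out.

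The 9 enzymes and all gene lists were chosen with earlier results of these data known. The text draws on all 9, on the pathway genes with the smallest p (up to 4 per list and comparison), and on the 6 genes nearest in profile. 1 pathway gene that this rule names is not reported here. Mice are numbered in the labels, so p-values measure the spread between mice. Intervals and the floor of 3 counts cover counting error only.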

Additional observations from a re-analysis of the deposited data

Results flagged for a closer look

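Single libraries stood away from the other 4 of their group in 8 of 30 groups of values examined, by the gap of the highest or lowest value over the group's range. Such a gap arises by chance in about 1 in 20 groups of normally distributed values; CPM values with many zeros are not of that kind, so the number of such groups is not read against that share. A lone count among zeros, as for Agxt here, meets the rule by construction. Oil mouse 2 had 189.9 CPM of Pck1, 314 CPM of G6pc, 44.4 CPM of Aox3 and 697 CPM of the 9 enzymes in sum, each the highest of its group. G6pc was at 145 CPM in wild-type CCl4 mouse 1 and at 25.5 CPM in Trem1-deficient CCl4 mouse 5. Tat was at 6.95 CPM in that same Trem1-deficient mouse. Agxt was at 0.805 CPM, 1 count, in Trem1-deficient CCl4 mouse 4 and at 0 in the other 4 mice. The secretory markers of hepatocytes summed to 29540.3 CPM in Trem1-deficient CCl4 mouse 5, the highest of its group, to 23958 CPM in wild-type CCl4 mouse 1, the lowest of its group, and to 21626 CPM in oil mouse 2, the highest of its group. Lrp2, a kidney tubule marker, was at 40.7 CPM in oil mouse 2 and at 0 in the other oil mice. The part of these markers in the values was not tested.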

How the results depend on the processing

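Of the enzymes, 2 passed for Trem1-deficient against wild-type CCl4; 1 did with no filter, with mouse number as replicate block and with only the 2 groups, 0 with index series as a term or within 1 index series, and 1 to 2 with single mice left out. Aox3 was past the threshold in every fit but those 2 with index series; Agxt was past it with library totals and without wild-type CCl4 mouse 1 or 5, had no adjusted p in DESeq2 and did not pass the filter with only the 2 groups. For wild-type CCl4 against oil the count was 0, and 0 to 1 with single mice left out (1 without wild-type CCl4 mouse 1); for Trem1-deficient CCl4 against oil it was 0, and 1 with DESeq2.

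Of the pathway genes, 5 passed for wild-type CCl4 against oil; 14 did with DESeq2, 11 with no filter, 3 with the replicate block, 0 with index series as a term and 2 to 12 with single mice left out. With that term, which rests on the Trem1-deficient mice alone, Hao1 turned to -2.53 and Hsd17b13 to -0.74. For Trem1-deficient against wild-type CCl4 the count was 5, with 16 in DESeq2, 17 with no filter, 3 within 1 index series and 3 to 11 with single mice left out. For Trem1-deficient CCl4 against oil it was 0, with 1 in DESeq2, 4 with no filter, 1 with only the 2 groups, 2 within 1 index series and 0 to 1 with single mice left out. The cause was not tested.

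The log2 ratio of the enzymes to secretory markers ran from -2.23 to -1.36 for wild-type CCl4 against oil, -0.999 to -0.13 between the CCl4 groups and -2.39 to -2.09 for Trem1-deficient CCl4 against oil with single mice left out. With Alb alone it was 1.499 between the CCl4 groups and -0.96 for Trem1-deficient CCl4 against oil; without acute-phase genes it was -1.45 for the last.

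Over all genes, 462 passed for wild-type CCl4 against oil (DESeq2 1010, no filter 813, index series as a term 37), 185 between the CCl4 groups (616, 563 and 77) and 21 for Trem1-deficient CCl4 against oil (74, 73 and 11). Scaling by library totals moved the median of all genes between the CCl4 groups to 0.26, against -0.03 with TMM, and all 8 enzymes kept negative differences there. The mouse numbers did not pair the groups (correlations of deviations -0.059 to 0.039). Depth limits Agxt, Tat, Aox3 and G6pc, most of whose Trem1-deficient libraries lie near the floor. G6pc had 0, 2, 1, 3 and 44 counts in Trem1-deficient CCl4 mice 1 to 5. Fbp1 had 2, 1, 40, 19 and 4 counts in the same mice, so depth limits it in part.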
